A study of Mus musculus with 30 samples.

Results

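Collagen genes encode the chains of the collagens, extracellular proteins in which chains wind around each other into a long helix built on glycine repeats. Fibrillar collagens such as type I form the cables of connective tissue, type IV collagens form the sheets of basement membranes around blood vessels, and transmembrane collagens sit in the plasma membrane with the helix outside the cell. The healthy cord parenchyma is known to hold little fibrillar collagen, most of which lies in the meninges and around larger vessels. The genes described here are the rows of the expression table whose names are Col, a number, the letter a and a number, and 36 of the 16995 genes of the table fitted that pattern. By class they were 11 fibrillar collagens, 5 of type IV, 4 of type VI, 8 FACIT collagens (fibril-associated collagens with interrupted helices), 2 transmembrane collagens, 2 multiplexins, 2 short-chain network collagens, the anchoring fibril collagen Col7a1 and Col26a1. The other 8 genes of the class lists (Col4a3, Col6a5, Col6a6, Col9a1, Col10a1, Col13a1, Col17a1 and Col28a1) were not analysed here.

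The samples were ribosomal RNA-depleted RNA libraries of the intermediate laminae at spinal levels C5/C6, trimmed with blades from the cervical hemicord, which in the stroke groups is the side that had lost its corticospinal input. All animals were adult C57BL/6 mice perfused with Ringer's solution, and all were female by the description of the methods. The stroke groups had a photothrombotic stroke of the right sensorimotor cortex and were taken at 4, 7, 14, 28 or 42 days post-injury (dpi), and the sham group (Ctrl in the labels) was operated without illumination of the skull. Each group held 5 animals, apart from 4 at 4 dpi, where 1 of the 30 labelled animals had no column of values, so 29 animals were used. Each value is the authors' normalized CPM (read count scaled to library size), rounded to 0.1, and the depth behind it is unknown. The cord was the tissue under study and not the lesion, and in bulk tissue fewer cells of a type and less RNA per cell cannot be told apart. Residual ribosomal RNA differed between animals: the gene Rn18s-rs5, for 18S ribosomal RNA, ran from 30321 to 52929 normalized CPM in sham animals and from 44755 to 779160 at 28 dpi. Beside the results stand fits with it as a covariate and without the 2 animals that had most of it, and its correlation with 2 collagen genes.

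The 36 genes lie on 14 chromosomes, and some are close neighbours (GRCm38 coordinates of the authors' table). Col4a1 (chr8:11198423-11312826, minus strand) and Col4a2 (chr8:11312805-11449287, plus strand) stand head to head, with their first exons overlapping by 22 bases on opposite strands. Col4a6 and Col4a5 are also head to head, with 1308 bases between them on chromosome X. Col3a1 and Col5a2 lie tail to tail on chromosome 1 with 24.6 kb between them. The genes also share an exon structure. In the transcript of each gene with the longest coding sequence (GENCODE M21), 65.6% of 1638 inner coding exons of 34 collagen genes had a length that is a multiple of 9 bases, which is the length of 1 glycine repeat, against 13.4% of 131697 inner coding exons of 12682 other genes of the table. Exons of exactly 54 bases made up 26.8% in the collagen genes and 0.403% in the others. The fibrillar genes were among the most regular, with 90% of the inner exons of Col1a2 and 87.8% of those of Col1a1 being multiples of 9. The transmembrane genes Col23a1 (80.8%) and Col25a1 (77.1%) were above the fibrillar Col5a3 (76.9%) and Col5a1 (76.6%). Col12a1 was the least regular, with 22.2%. Col8a1 and Col8a2 had no inner coding exon. Collagen transcripts were also long and rich in GC, with a median of 7.73 kb of merged exons and 55.9% GC, against 4.13 kb and 49.1% for the other genes.

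Promoter windows (RefSeq, GRCm38.p6, the 250 bases before the start) were found for 28 of the 36 genes, and the window nearest to the start in the authors' table was used. It lay under 300 bases from that start for 25 genes and farther for 3, at 804 bases for Col1a2, 1408 for Col27a1 and 49344 for Col25a1. TATAAA occurred on either strand in 2 of them, against 12.4% of all 32851 windows, CCAAT in 11, against 33.8%, and GGGCGG in 19, against 32.7%. The median GC content was 60% in the collagen windows and 52.4% in all windows. The window of Col6a3, the gene with the lowest adjusted p among the collagens at 28 dpi, and that of Col3a1, a fibrillar gene with TATAAA, are shown as the leading gene of the comparison and as 1 of the 2 windows with TATAAA, and capitals mark the matches to these words. Col6a3 lies on the minus strand (window chr1:90843972-90844221) and Col3a1 on the plus strand (window chr1:45311288-45311537), and neither window holds an annotated exon.
Col6a3: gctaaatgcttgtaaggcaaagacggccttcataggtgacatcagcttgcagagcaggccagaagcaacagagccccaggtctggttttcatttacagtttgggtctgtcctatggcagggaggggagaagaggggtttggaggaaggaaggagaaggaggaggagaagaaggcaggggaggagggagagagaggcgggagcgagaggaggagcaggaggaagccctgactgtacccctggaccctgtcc
Col3a1: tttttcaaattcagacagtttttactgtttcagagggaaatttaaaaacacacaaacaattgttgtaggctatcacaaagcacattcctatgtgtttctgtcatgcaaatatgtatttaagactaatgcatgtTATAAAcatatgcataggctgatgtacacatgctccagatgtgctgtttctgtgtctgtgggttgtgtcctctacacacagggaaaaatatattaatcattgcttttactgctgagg
The Col6a3 window holds none of these words. The Col3a1 window holds TATAAA once, starting 117 bases before the start.

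Levels were compared per kilobase of merged exons, since the genes differ in length. Col4a2, a type IV chain of every basement membrane, was highest over all 29 animals with 3.52 normalized CPM per kb (23.3 normalized CPM). It was followed by Col11a2, a minor fibrillar chain known from cartilage, with 2.97 per kb (20.4 normalized CPM). Col4a1, the partner chain of Col4a2, came next with 2.89 per kb (21.6 normalized CPM). The FACIT collagens Col16a1 and Col19a1 had 2.83 and 2.60 per kb. Col25a1, a transmembrane collagen made by neurons, had the highest value without length scaling, 26.5 normalized CPM, and 2.05 per kb. Its place depends on the length used, since its rank was 6 per kb of merged exons and 1 per kb of its longest transcript. On that second length Col16a1 had rank 2 and Col4a2 rank 3. Col1a2 and Col1a1, the chains of type I collagen, had 1.38 and 0.684 per kb, and Col3a1 had 0.400. Per kb of the longest transcript Col1a2 had 3.21, near Col4a1 at 3.26, Col1a1 had 0.757 and Col3a1 had 0.705. Col2a1, the collagen of cartilage, was lowest with 0.0705 per kb (0.652 normalized CPM), but per kb of the longest transcript Col4a4 was lowest.

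By class, the 8 FACIT genes held 28.9% of the summed level per kb, the 11 fibrillar genes 27.8% and the 5 type IV genes 24.1%. The 2 transmembrane genes held 7.97%, type VI 3.76%, the multiplexins 3.57%, the short-chain collagens 2.00%, Col26a1 1.52% and Col7a1 0.332%. The order of the classes depends on the length, since per kb of the longest transcript the fibrillar genes came first with 30.8%, before FACIT with 27.0%, type IV with 19.5% and the transmembrane genes with 10.4%. No collagen gene was at 0 in any animal, and 32 had a mean of at least 1 normalized CPM. The 4 below 1 were Col14a1, Col6a4, Col4a4 and Col2a1, where the rounding step is a large part of a value. In the order of levels in sham animals, 34 of the 35 neighbouring pairs had overlapping ranges, so the order is a description of ranks that mostly do not differ beyond the spread between animals. The SD within groups, relative to the mean, was 11.2% for Col1a2 and 11.5% for Col4a2 and reached 59.1% for Col8a2.

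**Figure D1:**
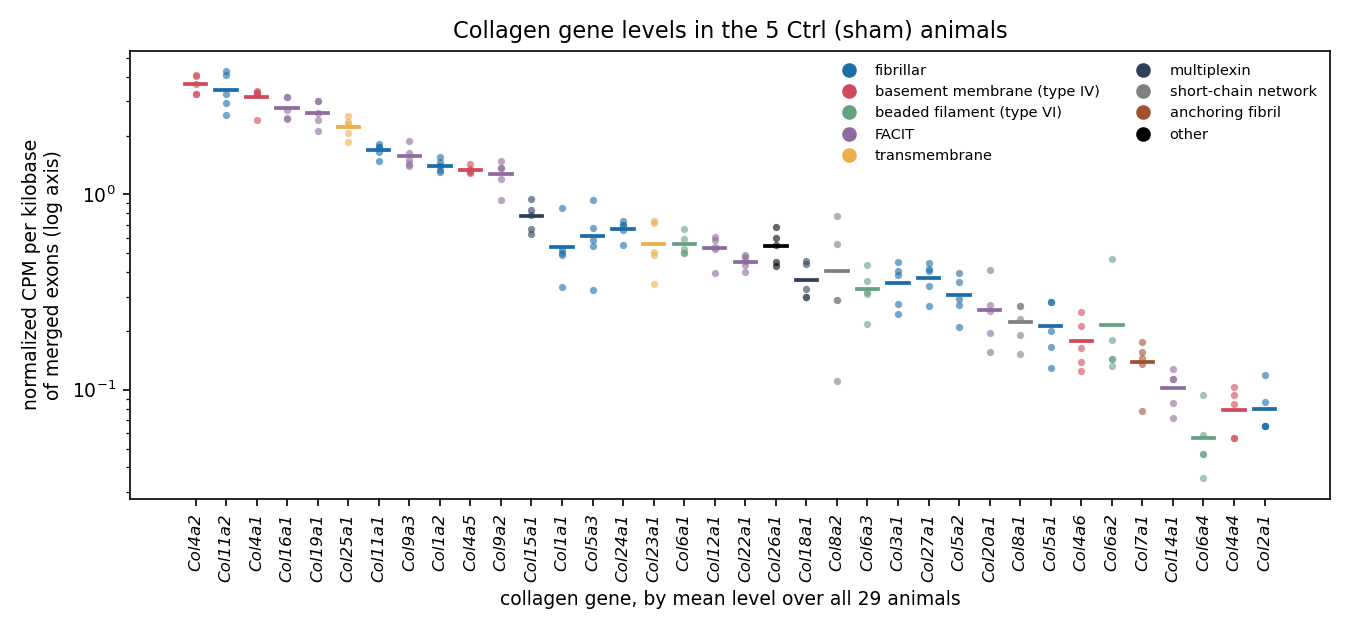
Level of each collagen gene in the 5 sham (Ctrl) animals, as normalized CPM per kilobase of merged exons on a log axis. Points are animals, lines are group means and colours are classes. Genes are ordered by their mean over all 29 animals, from Col4a2 (3.52 per kb) to Col2a1 (0.0705 per kb), and ranges of neighbouring genes mostly overlap.

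The first question was whether collagen genes changed in the denervated cord at any time after the stroke. A single model per gene on log2(value + 0.5), fitted with limma, gave the contrasts of the stroke groups with sham. P values were adjusted over all 16995 genes (Benjamini-Hochberg), and a gene counts as called here if that p was below 0.05 and its mean moved by more than 1.5-fold. Fold changes are on this scale, which understates the change of low genes. At 4, 7, 14 and 42 dpi, 0 of the 36 collagen genes were called in limma, and few genes of any kind were, namely 0.0941%, 0.0294%, 0.00588% and 0.0235% of all genes. At an unadjusted limma p under 0.05 there were 1, 3, 2 and 3 collagen genes at these times, against 5.14%, 5.84%, 11.6% and 14.8% of all genes, which at the same share would be 1.85, 2.10, 4.18 and 5.31 genes. At 28 dpi, 3 collagen genes were called, all higher, and 0 lower, where 0.488% of all genes were. They were Col6a3, Col6a4 and Col1a1, or 8.33% of the members against 4.64% of all genes (4.15% higher), a share that corresponds to 1.67 of 36 genes. The count was 0 with a pseudocount of 1, with Rn18s-rs5 as a covariate and after correction for gene length and GC content, 1 (Col6a4) without the 2 animals with the most ribosomal RNA and 1 (Col6a3) with quantile normalization. With every animal rescaled to the same sum, 13 were called and all 13 were lower. In that setting 4.25% of all genes lay above 0, with a median of -0.73 (the share of all genes called was not counted). On the adjusted p alone, without the fold limit, 5 collagen genes passed at 28 dpi (Col22a1 and Col18a1 in addition), or 13.9% against 24.9% of all genes. The higher side alone held 13.9% of the members and 11.9% of all genes.

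Most collagen genes lay above sham at 28 dpi without passing the test. Of the 36, 29 had a log2 fold change above 0, with a median of 0.17, while 49.3% of all genes were above 0 and their median was -0.0048. After correction of each animal for gene length and GC content, 21 of 36 were above 0 and the median was 0.049, beside 43.6% and -0.039 for all genes. With Rn18s-rs5 as a covariate, 27 of 36 were above 0 and the median was 0.166. Rescaling every animal to the same sum, ribosomal RNA included, moved the median of all genes to -0.73 and that of the collagen genes to -0.49, which is 0.24 above all genes, against 0.18 as deposited. At 4, 7, 14 and 42 dpi, 23, 15, 17 and 19 of 36 were above 0, with medians of 0.029, -0.069, -0.0017 and 0.0046. The mean of the 28 dpi group was the highest of the 6 group means in 23 of the 36 genes, and that of the 42 dpi group in 0. The lowest group mean was at 7 dpi in 13 genes and at 14 dpi in 10. In a moderated F test over the 6 groups, 4 collagen genes had an adjusted p under 0.05 (limma), namely Col4a2 (0.00397), Col6a3 (0.0114), Col9a3 (0.0248) and Col22a1 (0.0284), against 31.6% of all genes.

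**Figure D2:**
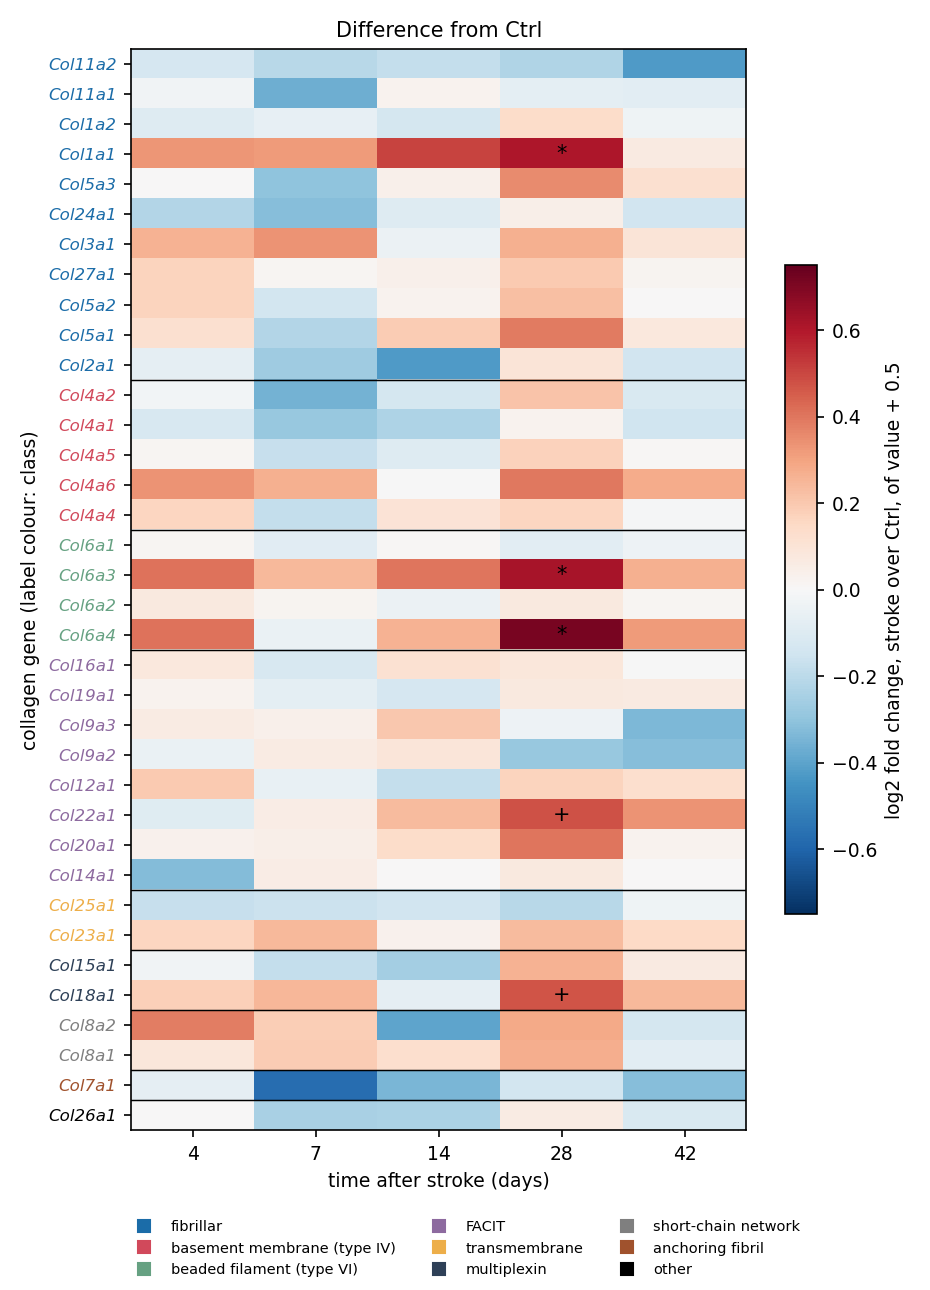
Log2 fold change of each of the 36 collagen genes against sham (values + 0.5) at 4, 7, 14, 28 and 42 days after stroke, grouped by class. Red is higher and blue lower than sham, an asterisk marks a called gene (limma adjusted p under 0.05 and fold change above 1.5) and a plus an adjusted p under 0.05 alone. All 5 marks are at 28 dpi, where 29 of 36 genes are above 0 (1 of 36 when every animal is rescaled to the same sum). Of all genes, 49.3% are above 0 there, and 4.25% with the same sum.

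Among the fibrillar collagens, which carry the tensile strength of connective tissue, 1 of 11 was called at 28 dpi, where 4.64% of all genes were. Col1a1, the main chain of type I collagen, had values of 3.4, 3.3, 2.2, 5.6 and 3.2 normalized CPM in the sham group. The 28 dpi animals had 4.1, 6.2, 6.3, 5.5 and 5.4. The groups overlapped, because 1 sham animal at 5.6 lay above 3 of the 28 dpi animals. The means were 3.54 ± 1.25 (SD, n = 5) and 5.50 ± 0.880 (n = 5), a log2 fold change of 0.61 with an SE of 0.21 (limma adjusted p = 0.0333, exact two-sided permutation p = 0.0317). Col1a1 was also high at 14 dpi, at 5.10 ± 0.863, but not called there (log2 fold change 0.51, limma adjusted p = 0.392), and its mean at 42 dpi was 3.68 ± 0.926. At 7 dpi its values spread from 2.7 to 6.6. The rise of Col1a1 at 28 dpi was called in 6 of 12 other settings and in 22 of 29 fits that left out an animal, and in the fit with values rescaled to the same sum its log2 fold change was -0.09. Without sham animal A12-1, at 2.2, it was 0.47 (limma adjusted p = 0.124), and without sham A11-4 or A12-3 or 28 dpi A3-3, A4-1, A4-3 or A4-4 it was 0.56 to 0.61, with adjusted p values of 0.0542 to 0.0850.

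Col1a2, the other chain of type I collagen, had no call and no adjusted p under 0.05 at any time against sham. Its values were 19.2, 18.1, 16.2, 17.3 and 16.5 in sham animals and 15.3, 19.9, 19.7, 19.3 and 22.8 at 28 dpi. Of these, 4 exceeded every sham animal and 1 was below all of them. The log2 fold change was 0.14 ± 0.097 (SE, limma adjusted p = 0.295). Col3a1, the type III chain that is deposited with type I in soft tissue, had means of 3.46 ± 0.865 in sham animals and 4.22 ± 0.844 at 28 dpi (log2 fold change 0.26, limma adjusted p = 0.369), and its largest group mean was at 7 dpi. Of the 11 fibrillar genes, 9 had a log2 fold change above 0 at 28 dpi, with a median of 0.20. The 2 below 0 were Col11a2 and Col11a1, the chains of the minor cartilage-type fibril and the fibrillar genes with the highest levels per kb of merged exons (Col1a2 is above Col11a1 per kb of the longest transcript). Col11a2 was 28.1, 22.5, 17.6, 29.4 and 20.3 in sham animals and 14.7, 20.9, 20.7, 15.2 and 15.2 at 42 dpi, with 3 of these below every sham animal (log2 fold change -0.42, limma adjusted p = 0.134, exact permutation p = 0.0556). Col11a1 had its lowest group mean at 7 dpi, 17.1 ± 4.64 against 21.6 ± 1.70 (log2 fold change -0.36, limma adjusted p = 0.791). Col24a1 moved between 0.04 above sham at 28 dpi and 0.32 below it at 7 dpi on the log2 scale, and none of these differences passed the adjusted p.

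Type IV collagens, the network of the vascular basement membrane, had no call at any time. Col4a2 was 24.3, 21.5, 21.7, 26.8 and 27.1 in the sham group and 22.3, 17.8, 20.4, 14 and 20.7 at 7 dpi. The 14 dpi animals had 20.6, 21.6, 21.9, 23.1 and 22.9, and the 28 dpi animals had 26.5, 29.5, 30.8, 29.8 and 24.3. All 5 animals at 28 dpi were above all 5 at 14 dpi, while 3 of them were above every sham animal. Against sham the log2 fold change was -0.35 at 7 dpi (limma adjusted p = 0.692) and 0.21 at 28 dpi (limma adjusted p = 0.134). Against 14 dpi the 28 dpi group was higher by 0.34 ± 0.105 (SE, limma adjusted p = 0.00936, exact permutation p = 0.00794, the smallest that 5 against 5 animals can give), which stayed under the fold limit. Col4a1 had nearly the same level at 28 dpi, with means of 24.0 ± 4.10 and 23.5 ± 3.07 (log2 fold change 0.02, limma adjusted p = 0.920, an SE of 0.14). Its lowest sham value was 18, and the other 4 sham animals lay between 24.4 and 25.3. All 5 type IV genes had a log2 fold change above 0 at 28 dpi, from 0.02 for Col4a1 to 0.39 for Col4a6, and 4 of 5 below 0 at 14 dpi. Col4a6, a chain of specialised basement membranes, had a log2 fold change of 0.34 at 4 dpi and of 0.28 at 42 dpi, with no adjusted p under 0.05.

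The transmembrane collagens, Col25a1 and Col23a1, had no call and no adjusted p under 0.05 at any time. Col25a1 was 32.6, 29.6, 26.8, 24.1 and 30.4 in sham animals and 27.2, 19.5, 24.2, 23.9 and 29.7 at 28 dpi, so that the groups overlapped broadly. The means were 28.7 ± 3.31 and 24.9 ± 3.84 (log2 fold change -0.21, SE 0.12, limma adjusted p = 0.212). Its mean was highest in the sham group, and its log2 fold change was below 0 at all 5 times. Col23a1 was 4.2, 2.9, 2.0, 4.1 and 2.8 in sham animals and 3.1, 3.6, 3.9, 5.0 and 3.4 at 28 dpi (log2 fold change 0.24, SE 0.17, limma adjusted p = 0.311). The sham group had the lowest of the 6 means of this gene. Col25a1 is a gene of neurons, and within groups its level did not follow that of Rbfox3, a neuronal nuclear protein gene (Pearson's r = -0.176 over 29 animals, permutation p = 0.376, adjusted p = 0.576, and Spearman's rho = -0.232, adjusted p = 0.484).

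The type VI collagens form beaded filaments next to basement membranes and cell surfaces, and 2 of 4 were called at 28 dpi, where 4.64% of all genes were. Col6a3 (chr1:90765923-90843971, minus strand), the large chain of the filament, was 3.8, 5.2, 2.6, 3.7 and 4.3 in sham animals and 5.2, 7.9, 6.0, 5.8 and 6.2 at 28 dpi. Of the 28 dpi animals, 4 were above every sham animal, and the other equalled the highest of them. The means were 3.92 ± 0.947 and 6.22 ± 1.01 (n = 5 each), a log2 fold change of 0.62 with an SE of 0.13 (limma adjusted p = 0.00238, exact permutation p = 0.0159). The log2 fold change was 0.41 at 4 dpi (limma adjusted p = 0.520), 0.40 at 14 dpi (0.381) and 0.27 at 42 dpi (0.339). The call at 28 dpi held in 7 of 12 other settings and in 27 of 29 fits that left out an animal. It ended without the sham animal at 2.6 (log2 fold change 0.50) and without the 28 dpi animal at 7.9 (0.54), both under the fold limit with adjusted p values of 0.0131 and 0.0130 (limma), and its sign was reversed at -0.09 when all animals were rescaled to the same sum.

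Col6a4 (chr9:105989454-106096783, minus strand), a chain related to Col6a3, was 0.3, 0.4, 0.4, 0.5 and 0.8 in sham animals and 0.9, 0.6, 1.2, 1.6 and 1.3 at 28 dpi. Of the 28 dpi animals, 4 were above every sham animal. The means were 0.480 ± 0.192 and 1.12 ± 0.383, a log2 fold change of 0.71 with an SE of 0.25 (limma adjusted p = 0.0337, exact permutation p = 0.0159). These values are only a few rounding steps, and the log2 fold change was 0.51 with a pseudocount of 1 and 1.14 with 0.05. The call held in 6 of 11 other settings and 23 of 29 fits without an animal, and ended without sham A11-1, A11-4 or A12-1 or 28 dpi A4-1, A4-3 or A4-4, where the log2 fold change was 0.61 to 0.69 and the limma adjusted p 0.0522 to 0.0949. Col6a1 and Col6a2, the chains with which Col6a3 is assembled, were not called at 28 dpi, with log2 fold changes of -0.08 (SE 0.17) and 0.08 (SE 0.22) and no adjusted p under 0.05. Col6a1 had group means within 1.1 times of each other. Col6a2 had 1 sham animal at 3.9 while the other 4 lay between 1.1 and 1.5.

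**Figure D3:**
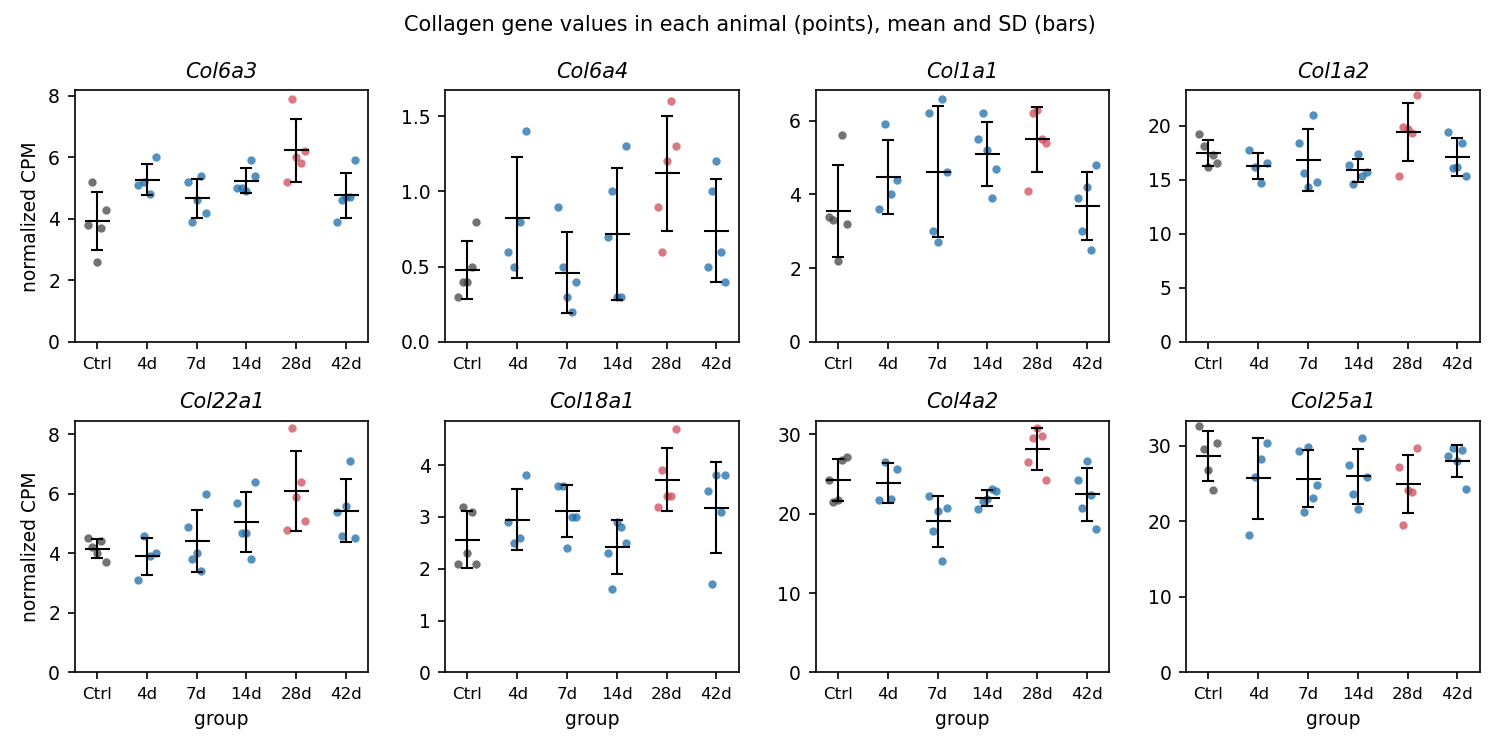
Values of 8 collagen genes in each animal (points), with group means and SDs (bars), in normalized CPM on axes from 0. In the 28 dpi group (red), Col6a3, Col6a4 and Col1a1 were called higher than sham (grey), Col22a1 and Col18a1 passed the adjusted p alone, and Col1a2, Col4a2 and Col25a1 passed neither. With values rescaled to the same sum, only Col6a4 of these 8 genes was above sham, and 4.25% of all genes were.

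Among the FACIT collagens, which sit on the surface of fibrils, 0 of 8 were called. Col22a1, a collagen of tissue junctions, was 4.5, 4.2, 4.0, 4.4 and 3.7 in sham animals and 4.8, 8.2, 5.9, 6.4 and 5.1 at 28 dpi. It was the only collagen gene whose 28 dpi animals all lay above all sham animals, where 6.15% of all genes did so. The means were 4.16 ± 0.321 and 6.08 ± 1.34 (log2 fold change 0.48, SE 0.15, limma adjusted p = 0.0218, exact permutation p = 0.00794), and at 42 dpi 4 of 5 animals were above the sham range (log2 fold change 0.34, limma adjusted p = 0.288). At 28 dpi the adjusted p of Col22a1 stayed under 0.05 in 8 of 12 other settings, and was 0.292 with Rn18s-rs5 as a covariate, 0.121 after correction for length and GC content, 0.0824 without the 2 animals with the most ribosomal RNA and 0.434 with the same sum, where the log2 fold change was -0.24 (limma). Col9a3 and Col9a2, chains of type IX collagen, had means below sham at 42 dpi. Col9a3 was 6.3, 5.5, 5.4, 7.2 and 5.8 in sham animals and 4.4, 5.9, 4.4, 3.8 and 5.0 at 42 dpi (log2 fold change -0.34, limma adjusted p = 0.196, exact permutation p = 0.0317). Its highest group mean was at 14 dpi, 1.51 times its lowest, at 42 dpi. Col9a2 had log2 fold changes of -0.29 at 28 dpi and -0.32 at 42 dpi with no adjusted p under 0.05. The abundant Col16a1 and Col19a1 had group means within 1.17 and 1.16 times of each other.

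The multiplexins Col18a1 and Col15a1 belong to vascular and epithelial basement membrane zones, and the C-terminal part of Col18a1 is the source of endostatin. Col18a1 was 2.1, 3.2, 2.3, 3.1 and 2.1 in the sham group and 2.3, 1.6, 2.9, 2.8 and 2.5 at 14 dpi. The 28 dpi animals had 3.2, 3.9, 3.4, 3.4 and 4.7. All animals at 28 dpi were above all at 14 dpi, as in Col4a2, where 10.2% of all genes were so separated, and 4 of 5 were above the sham range. Against sham the log2 fold change was 0.47 (SE 0.17, limma adjusted p = 0.0429), under the fold limit. That p stayed under 0.05 in 6 of 12 other settings, and the rest gave adjusted p values of 0.0556 (a fit of the 2 groups alone) to 0.521 (the same sum, where the log2 fold change of Col18a1 was -0.20, limma). Col15a1 had means of 4.90 ± 0.819 in sham animals, 4.04 ± 0.841 at 14 dpi and 5.96 ± 0.961 at 28 dpi (28 dpi against sham 0.26, limma adjusted p = 0.200). Of the other classes, the short-chain genes Col8a1 and Col8a2 had log2 fold changes of 0.27 and 0.28 at 28 dpi, with the SE of Col8a2, 0.42, larger than its change. Col7a1, the anchoring fibril chain, was below sham at 7 dpi by 0.57 on the log2 scale (0.8 ± 0.339 against 1.42 ± 0.377 normalized CPM, limma adjusted p = 0.791). Col26a1 had a log2 fold change of 0.06 at 28 dpi and of -0.11 at 42 dpi.

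The 28 dpi group was also compared with the time points beside it. Against 14 dpi, 0 collagen genes were called, where 11.8% of all genes were (limma), and 8 passed an unadjusted p under 0.05, against 50.7% of all genes. On the adjusted p alone, 5 were higher (Col15a1, Col18a1, Col4a2, Col1a2 and Col12a1), against 43% of all genes, 21% in the higher direction, and 13.9% of the members. Col15a1 was 0.52 higher (adjusted p = 0.00654, limma), Col18a1 0.54 (0.0118), Col12a1 0.35 (0.0393) and Col1a2 0.27 (0.0243). The adjusted p stayed under 0.05 in 11 of 12 other settings for Col15a1, 10 for Col18a1 and Col4a2, 9 for Col1a2 and 8 for Col12a1. With the same sum none of the 5 passed (limma adjusted p of 0.544 to 0.982), and after correction for gene length and GC content only Col15a1 did, with Col12a1 at -0.05. Against 28 dpi, the 42 dpi group had 0 called collagen genes (0.224% of all genes) and 0 at an adjusted p under 0.05 (1.94%), with 4 at an unadjusted p under 0.05 (21.1%, limma), but 34 of 36 were below 0, with a median of -0.17, while 48.9% of all genes were above 0 with a median of -0.0053. The 2 that were not were Col25a1 and Col6a1. With the same sum 22 of 36 were above 0 (median 0.031, against 82% and 0.205 for all genes), and with values corrected for length and GC, 13 of 36 were (median -0.056, against 54.3% and 0.018). Col1a1 had the largest of these differences, -0.54 (limma adjusted p = 0.137), and Col4a2 the lowest adjusted p, 0.0798 at -0.33. These comparisons share the 28 dpi animals with each other and with the comparison to sham.

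The chains of one collagen are made in the same cell, so their levels were compared across animals after subtraction of the group means, for 11 pairs of genes. Col4a1 and Col4a2, which share one helix and stand head to head, went together, with Pearson's r = 0.638 (permutation p = 0.00062, adjusted p = 0.00682) and Spearman's rho = 0.633 (permutation p = 0.0008, adjusted p = 0.0088) over 29 animals. Without the 2 animals farthest from the median of Col4a1, r was 0.610. It was positive in 6 of 6 groups, from 0.530 to 0.958. No other pair had an adjusted p under 0.05. Col1a1 and Col1a2, the chains of type I collagen, had r = 0.383 (adjusted permutation p = 0.214) and rho = 0.325, with r positive in 3 of 6 groups. Col1a1 and Col3a1 had r = 0.411 (adjusted permutation p = 0.169) and rho = 0.480. Col6a1 and Col6a2 had r = 0.125, Col5a1 and Col5a2 r = -0.195, with adjusted permutation p values of 0.576 for both. For Col1a2 with Dcn, a proteoglycan gene of fibroblasts, r was 0.405 (adjusted permutation p = 0.169), and for Col4a1 with Pecam1, an endothelial adhesion molecule gene, it was 0.533 (adjusted permutation p = 0.0811). With Rn18s-rs5, the r of Col1a2 was -0.0592 and that of Col4a1 was 0.105 (adjusted permutation p = 0.764 and 0.722). The low and rounded values of Col5a1, Col5a2, Col6a1 and Col6a2 limit what their pairs can show.

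**Figure D4:**
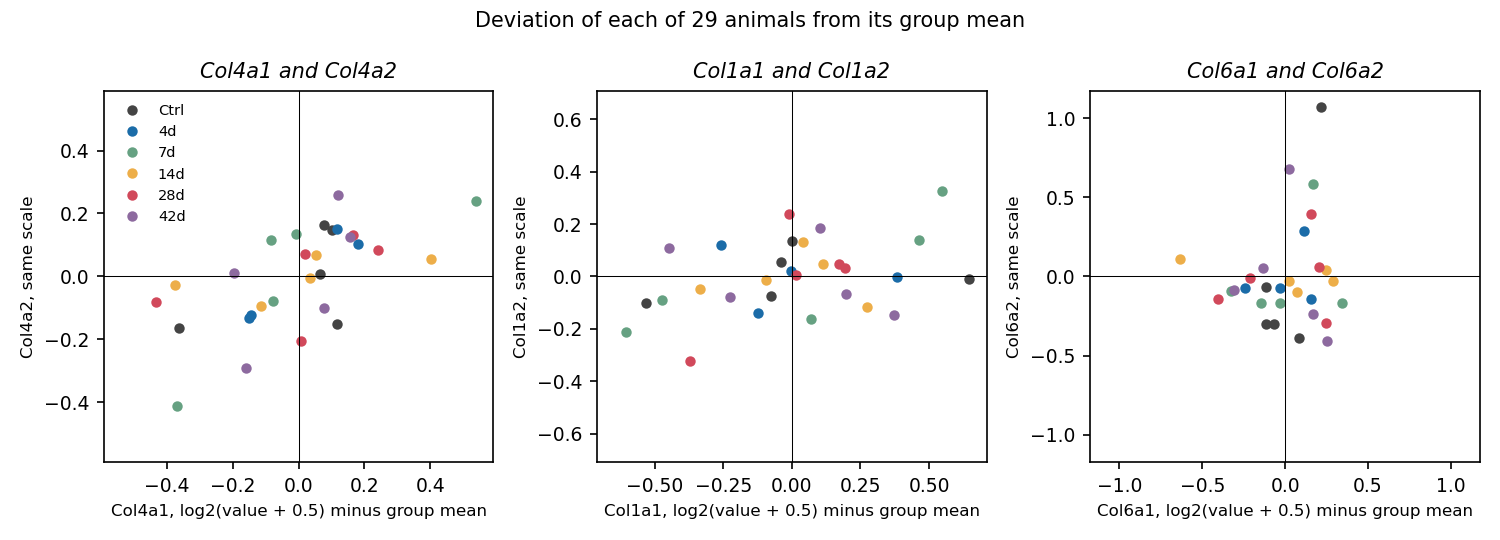
Deviation of each of 29 animals from its group mean, on the log2(value + 0.5) scale, for the chain pairs of type IV, type I and type VI collagen. Points are animals coloured by group. Col4a1 and Col4a2 deviate together (r = 0.638), the pair of Col1a1 and Col1a2 (r = 0.383) did not pass the test, and the spread of Col6a2 comes largely from single high animals (r = 0.125).

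Genes that make, process, bind or degrade collagen were read from fixed lists, and none was called at 4, 7, 14 or 42 dpi. Of 20 genes for chain modification and folding, 19 were in the table and 0 were called at 28 dpi, with 5 passing the adjusted p alone, all lower, where 13% of all genes passed on the lower side. Serpinh1, the collagen-specific chaperone, was 12.1 in sham animals and 8.56 at 28 dpi on average (log2 fold change -0.48, limma adjusted p = 0.00621), with all 5 animals at 28 dpi below all 5 sham animals. Of all genes, 3.75% were so separated. P4ha1, a prolyl hydroxylase subunit gene, was lower by 0.35 (limma adjusted p = 0.0287), and the others were P4hb, Colgalt1 and Mia3. Of the propeptide removal and cross-linking genes, 12 of 14 were in the table and 2 passed on the higher side without a call (11.9% of all genes passed there), Adamts2, which removes the N-propeptide of fibrillar chains (log2 fold change 0.51, limma adjusted p = 0.00191), and Tll1 (0.46, limma adjusted p = 0.0134). Lox was not analysed here. Of the 8 receptor genes measured, 2 passed on the higher side, Lair1 (0.46) and Adgrg1 (0.37), beside 11.9% of all genes. Of 9 breakdown genes 1 passed there, Mmp15 (0.23), a share close to that of all genes. Against 14 dpi, 4 of the 19 chain modification genes were lower at 28 dpi at an adjusted p under 0.05 and 1 was higher (limma), where 21.9% and 21% of all genes were.

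Proteins that bind collagen in the matrix were read from a further list. Of 17 genes, all in the table, 4 were called higher at 28 dpi, 7 passed the adjusted p on the higher side and 1 on the lower side, and 13 were above 0 with a median of 0.28. Of all genes, 4.15% were called higher, and 11.9% passed on the higher and 13% on the lower side. Fn1, the gene of fibronectin, rose from 17.8 to 30.8 normalized CPM (log2 fold change 0.76, limma adjusted p = 0.00365), with all 5 animals above the sham range, where 6.15% of all genes were so separated. Lama5, a laminin chain of the vascular basement membrane, rose by 0.72 (limma adjusted p = 0.00783), Hspg2, the gene of perlecan, by 0.67 (limma adjusted p = 0.0131) and Tnxb, a tenascin that binds fibrillar collagen, by 0.65 (limma adjusted p = 0.0254). None of these calls held with values rescaled to the same sum or with Rn18s-rs5 as a covariate, and those of Lama5, Hspg2 and Tnxb were also lost after correction for length and GC content. Tnxb was called in only 5 of 12 other settings, being lost also with a pseudocount of 1, with quantile normalization, in a fit of the 2 groups alone and without the 2 animals with the most ribosomal RNA. In the comparison with sham, leaving out 1 animal did not end the call of Fn1, and ended that of Lama5 without sham A12-1, that of Hspg2 without sham A11-4 or A12-1, and that of Tnxb in 5 of 29 fits (sham A12-1 or A12-3, or 28 dpi A3-3, A4-3 or A4-4). Against 14 dpi, 3 of the 17 genes were called, all higher, where 11.8% of all genes were called. Hspg2 was 1.12 higher (limma adjusted p = 5.95e-05) and was called in 12 of 12 other settings. All 5 of its animals at 28 dpi were above the 14 dpi range, where 10.2% of all genes were so separated. Lama5 was 0.74 higher (limma adjusted p = 0.00251) and Fn1 0.63 (limma adjusted p = 0.00475), and both were called in 10 of 12, being lost with the same sum and with the correction for length and GC. The call of Fn1 also ended without 14 dpi A5-4 or A6-2 or 28 dpi A4-1. Sparc, a collagen-binding protein gene and the most abundant of the list, was lower at 28 dpi, with means of 410 in sham animals and 356 (log2 fold change -0.21, limma adjusted p = 0.0487).

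Markers of cell types that make collagen were set beside these results. Of 10 fibroblast markers of the meninges and vessel walls, 7 were in the table, and their summed level ranged from 18.9 to 21.4 normalized CPM in sham animals and from 19.2 to 22.8 at 28 dpi, with 0 called and 4 of 7 above 0. Of the 10 mural cell markers, 9 were measured, with sums of 125 to 151 in sham animals and 123 to 152 at 28 dpi. Of 5 Schwann cell markers only 2 were in the table, with sums of 23.5 to 37.7 and 22.6 to 29.7 and 0 called. The 10 endothelial markers summed to 149 to 181 in sham animals and 155 to 233 at 28 dpi, with 0 called, 3 passing the adjusted p on the higher side (Vwf, Cdh5 and Flt1) and 1 on the lower side (Ly6c1), beside 11.9% and 13% of all genes. Oligodendrocyte markers were below 0 at 28 dpi in 5 of 5 genes, 3 of which passed the adjusted p. Of the 5 neuron markers, 3 were below 0 and only Snap25 passed (-0.30, limma adjusted p = 0.0160). Slc17a6 was at -0.26 (limma adjusted p = 0.0555), Syt1 at -0.17, Rbfox3 at 0.08 and Slc32a1 at 0.01. Snap25 makes up most of the sum of the 5, which ran from 1782 to 2299 in sham animals and from 1466 to 1977 at 28 dpi. Of the 5 astrocyte markers, Slc1a2 was higher (0.29, limma adjusted p = 0.0204) and Aqp4 (-0.26, 0.0116) and Aldh1l1 (-0.20, 0.0377) were lower, with sums of 2397 to 2930 and 2797 to 3263. Of the 5 microglia markers, 3 were above 0 and 2 below, down to -0.20, with a median of 0.11. Only Cx3cr1 passed (0.34, limma adjusted p = 0.0252), and the sums of the 5 were 56.2 to 66.7 and 62.2 to 78.1. Against 14 dpi, 4 of the 10 endothelial markers were higher at 28 dpi and 1 was lower at an adjusted p under 0.05 (limma). Of these, Vwf was called higher (0.92) and Ly6c1 lower (-0.65). In the same comparison 1 of 9 mural cell markers was higher (Abcc9, 0.52), and 0 of 7 fibroblast markers passed. Of all genes, 21% were higher and 21.9% lower. The part of these shifts in the collagen values was not tested.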

How the data were processed

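RNA of 29 animals in 6 groups was analysed. The authors used SALMON 0.8.1 to quantify reads against mm10 transcripts and Tximport 1.0.3 for gene sums, and genes with low expression were removed. The deposited score of a gene is the edgeR-normalized CPM, rounded to 0.1 by the authors (per the labels edgeR 3.14.0 and R 3.4.1). These values are not counts, read totals were not used here, and count models could not be applied, so precision rests on how far animals of a group differ and on the rounding. Nothing was done to the values here other than log2(value + 0.5). Fold changes and p values of the authors' own comparisons in the table were not used, and all 29 columns were mapped to animals by title.

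Groups were compared with limma 3.58.1 (R 4.3.3) in 1 fit of 6 group means with a mean-variance trend and Benjamini-Hochberg adjustment over 16995 genes, tested on simulated data. Single genes were also compared by exact two-sided permutation (smallest p 0.00794 for 5 against 5 and also for 4 against 5), and pairs of genes by 100000 permutations within groups. Lengths, GC content and exons came from GENCODE M21 (GRCm38), with a start and end equal to the authors' table for 35 of 36 genes. The largest share of 31-base words that a collagen gene had in common with other genes was 2.75%, for Col26a1. The labels do not say whether strand was used in counting, so the exons that Col6a4, Col4a1, Col4a2, Col9a3, Col22a1, Col5a1 and Col15a1 share with genes on the opposite strand are uncertain. Python 3.11.15, scipy 1.17.1, pandas 2.3.3, numpy 2.4.6 and matplotlib 3.10.9 were used.

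The members, classes, marker and pathway lists and tests were chosen with earlier results of these data known. Genes named with values were all called collagen genes, the 2 of each class with the highest level per kb, at each time the 3 that rose most and the 3 that fell most among those with a mean of at least 1, and a fixed set. Col12a1, Col2a1, Col5a1, Col5a2, Col14a1, Col4a4, and pathway genes with an adjusted p under 0.05 but no call, were named after their values were seen. Alternatives were pseudocounts of 1 and 0.05, a filter on a mean of at least 1, no trend, quantile normalization, median centring, the same sum in every animal, Rn18s-rs5 as a covariate, correction for length and GC content, a fit of the 2 groups alone, unit numbers (from the labels) as a random block, no fold limit and leaving out each animal. Leaving out the 2 animals with the most ribosomal RNA was added after seeing the data.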

Additional observations from a re-analysis of the deposited data

Results flagged for a closer look

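In groups of 4 or 5 animals, 1 animal lay far from the others in 7 of 156 group and gene combinations tested, by the gap to its neighbour relative to the range, and chance alone flags about 1 in 20. Col6a2 had such a high animal in 3 groups, at 3.9 normalized CPM in the sham group, 2.2 at 4 dpi and 2.7 at 7 dpi. The others were a low Col4a1 value of 18 in the sham group, a low Col11a1 value of 18.4 at 14 dpi, a high Col8a1 value of 3.6 at 14 dpi and a high Col7a1 value of 2.1 at 42 dpi.

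The 28 dpi group differed from the 14 dpi group on the adjusted p alone (limma) for 5 collagen genes, by 0.54 for Col18a1, 0.52 for Col15a1, 0.35 for Col12a1, 0.34 for Col4a2 and 0.27 for Col1a2 on the log2 scale. None of these passed the fold limit.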

How the results depend on the processing

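Of the comparisons with sham, those at 4, 7 and 14 dpi gave 0 called collagen genes in every alternative run. At 42 dpi the count was 0 except with values rescaled to the same sum, where it was 1 (Col11a2, lower). At 28 dpi the 3 calls became 0 with a pseudocount of 1, with Rn18s-rs5 as a covariate and with correction for length and GC content, 1 with quantile normalization (Col6a3), 1 without the 2 animals with the most ribosomal RNA (Col6a4), 5 with no fold limit and 13 with the same sum, all 13 lower. Leaving out 1 animal gave 0 to 3 calls at 28 dpi, with 0 without the sham animal A12-1 and 1 without sham A11-4 or without A3-3, A4-1, A4-3 or A4-4 of the 28 dpi group. Between 28 and 14 dpi the count of 0 became 1 with a pseudocount of 0.05 (Col18a1), 5 with no fold limit, 2 without the 2 animals with the most ribosomal RNA (Col6a4 and Col8a2) and 0 to 1 when 1 animal was left out. With the same sum, 1 of 36 genes (Col6a4) was above 0 at 28 dpi, against 29. Of all genes, 4.25% were above 0 with the same sum (median -0.73), against 49.3%. Named genes that changed sign without a call came to between -0.20 (Col4a6 and Col18a1) and -0.56 (Col4a2), and among those called in either fit the log2 fold changes turned to -0.68 for Col16a1, -0.69 for Col19a1, -0.091 for Col1a1, -0.63 for Col1a2, -0.67 for Col24a1, -0.64 for Col26a1, -0.75 for Col4a1 and -0.092 for Col6a3. No paired analysis was possible because the groups share no replicate numbers, and the unit number as a random block (correlation -0.0441) left the count at 28 dpi at 3. Sham and 28 dpi animals share no unit, so this block cannot separate unit from time point in that comparison. Only the 28 and 42 dpi groups have a unit (A3) in common. The causes were not tested. Rounding to 0.1 and the unknown depth limit the genes under 1 normalized CPM.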
